A study of Mus musculus with 12 samples.

Results

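The core identity of enteric glia was followed through 9 genes, Sox10, S100b, Fabp7, Entpd2, Foxd3, Sox2, Ednrb, Apod and Lgi4. They were chosen by name, as genes known to mark these cells. Earlier results of these data were known at that point, so their enrichment in the tagged fraction is no independent test. All 9 were found among the 12975 genes of the count table. The libraries came from mice with a tamoxifen-inducible, glia-directed Cre and the Rpl22HA allele, in which Cre switches on a haemagglutinin (HA) tag on the ribosomal protein RPL22. Every mouse, naive ones included, carried both alleles and received 2 tamoxifen injections, begun at 10 to 12 weeks of age, and tissue was taken 3 to 4 weeks after the first. RNA bound to ribosomes was pulled down from the small-intestinal muscularis externa, the muscle layer with the myenteric plexus attached, and the homogenate of each mouse was divided between an anti-HA antibody and a mouse IgG1 control. T0 denotes naive mice and T3 mice taken 3 h after intestinal manipulation, a surgical handling of the bowel that inflames its muscle layer. Each of the 4 groups (HA T0, HA T3, IgG T0 and IgG T3) held 3 libraries from 3 mice, numbered 1, 2 and 4 at T0 and 1, 3 and 4 at T3, so 6 mice gave 12 libraries. Tagged ribosomes mark any cell in which Cre was active, and fewer tagged cells cannot be told apart from less RNA per cell in such a pull-down.

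Enteric glia surround the neurons of the gut wall and derive from the neural crest. SOX10 is the transcription factor that specifies glia within the crest lineage and is retained in mature glia, FOXD3 acts in early crest cells and their glial descendants, and SOX2 is associated with progenitor potential. EDNRB, the type B endothelin receptor, responds to endothelin 3 and is needed for crest cells to colonise the distal bowel. S100B is a calcium-binding protein and the most widely used enteric glia marker. FABP7 is a fatty-acid-binding protein of immature and radial glia, APOD a secreted lipocalin that carries small lipids, LGI4 a protein secreted by peripheral glia that binds ADAM-family receptors, and ENTPD2 an ectonucleotidase that breaks down extracellular ATP.

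In GRCm38 coordinates of the GENCODE annotation, the 9 protein-coding genes lie on 8 chromosomes. Sox10 lies on the minus strand at chr15:79154908-79165240, S100b on the plus strand at chr10:76253853-76261159, Fabp7 on the plus strand at chr10:57784881-57788450 and Entpd2 on the plus strand at chr2:25395874-25401321. Foxd3 lies on the plus strand at chr4:99656299-99658622, Sox2 on the plus strand at chr3:34650405-34652461 and Ednrb on the minus strand at chr14:103814625-103844402. Apod lies on the minus strand at chr16:31296192-31314808 and Lgi4 on the plus strand at chr7:31059342-31070935. Reads were counted near the 3' end, and in that window an exon of Npdc1 shares the strand of Entpd2, an exon of Gm23366 shares the strand of Foxd3, and an exon of Fxyd3 runs on the opposite strand to Lgi4. Reads there could be assigned to either gene of the pair or to none, so the levels of Entpd2, Foxd3 and Lgi4 carry that uncertainty.

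RefSeq promoter sequences (GRCm38.p6) were matched for 7 of the 9 genes. Shown here are the 250 bases before the start site of the 2 genes that rose at T3, Sox2 and S100b, and of Foxd3 and Apod, which did not pass the test and hold a match to a searched motif. Capitals mark that match, and bases run 5' to 3' on the strand of the gene.
Sox2, chr3:34649745-34649994, plus strand: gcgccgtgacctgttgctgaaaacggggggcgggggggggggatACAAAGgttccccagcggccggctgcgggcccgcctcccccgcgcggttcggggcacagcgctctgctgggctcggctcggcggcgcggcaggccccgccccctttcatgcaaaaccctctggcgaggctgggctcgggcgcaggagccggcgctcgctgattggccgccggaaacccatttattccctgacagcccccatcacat
S100b, chr10:76253586-76253835, plus strand: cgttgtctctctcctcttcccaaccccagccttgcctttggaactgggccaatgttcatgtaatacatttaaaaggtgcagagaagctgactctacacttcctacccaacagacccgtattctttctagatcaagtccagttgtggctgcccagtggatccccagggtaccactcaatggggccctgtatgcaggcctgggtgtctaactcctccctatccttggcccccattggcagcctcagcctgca
Foxd3, chr4:99656049-99656298, plus strand: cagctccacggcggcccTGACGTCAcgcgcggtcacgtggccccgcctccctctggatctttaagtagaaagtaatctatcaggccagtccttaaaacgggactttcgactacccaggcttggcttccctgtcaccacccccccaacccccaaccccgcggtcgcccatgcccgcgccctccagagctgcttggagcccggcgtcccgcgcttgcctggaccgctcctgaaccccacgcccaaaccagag
Apod, chr16:31314809-31315058, minus strand: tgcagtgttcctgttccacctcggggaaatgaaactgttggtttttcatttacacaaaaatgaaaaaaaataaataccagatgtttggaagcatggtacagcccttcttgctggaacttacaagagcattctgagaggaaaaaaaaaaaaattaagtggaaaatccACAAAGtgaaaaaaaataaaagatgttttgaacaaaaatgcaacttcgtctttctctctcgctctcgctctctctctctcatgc
The motifs searched on both strands were ACAAAG together with ACAATG and also AACAAT, which are short SOX-type sites, TGACGTCA, the cyclic AMP response element, and the TATA box TATAAA. The last SOX-type motif shares letters with the one before it, and the pair can overlap. Positions count from the RefSeq start, which for Foxd3 and Apod is the GENCODE start given above, while the GENCODE start lies 410 bases downstream of it for Sox2 and 17 bases for S100b. ACAAAG began 206 bases before the start of Sox2 and 84 bases before that of Apod, and was held by 16.5% of all 32851 promoter windows of this length. TGACGTCA began 233 bases before the start of Foxd3 and was held by 1.55% of windows. None of ACAATG (10.7% of windows), AACAAT (9.42%) and TATAAA (12.4%) occurred in the 7 promoters, and the S100b window held none of the 5 motifs. With 16.5% of windows holding ACAAAG, matches in 2 of 7 genes are a description of letters alone.

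Levels are given as CPM, counts of unique molecular identifiers scaled to a common library total. Each identifier tags 1 captured RNA molecule near its 3' end, so transcript length does not enter. Levels of different genes can be set side by side only as far as the counting window captures each gene alike. The limit given above for Entpd2, Foxd3 and Lgi4 applies to their rank. The HA libraries held 1789710 to 2870591 counts at T0 and 1221788 to 1495439 at T3, the IgG libraries 388214 to 1289833 at T0 and 88136 to 248522 at T3. A gene with a count of 0 could thus have a level of up to 1.05 CPM (3 counts) where the library was deepest and of up to 34.0 CPM where it was most shallow. Members rested on 0 to 17 counts each in the IgG T3 libraries. For Ednrb, IgG T3 replicate 1 stood apart, at 125 CPM (11 counts) against 10.9 and 24.1 CPM (1 and 6 counts) in IgG T3 replicates 3 and 4. Sox10 and Entpd2 were instead highest in IgG T3 replicate 3, at 76.1 and 185 CPM. Markers of smooth muscle summed to 17168 to 26060 CPM in HA T0 and 52396 to 68716 CPM in IgG T0, so muscle RNA was present in both. Of the 3 markers of interstitial cells of Cajal, Kit and Ano1 passed the test as enriched in HA at both times, and the list's sum was 2604 to 3366 CPM in HA T0 against 233 to 316 CPM in IgG T0. The tagged fraction therefore held RNA of marker genes other than those of glia.

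**Figure D1:**
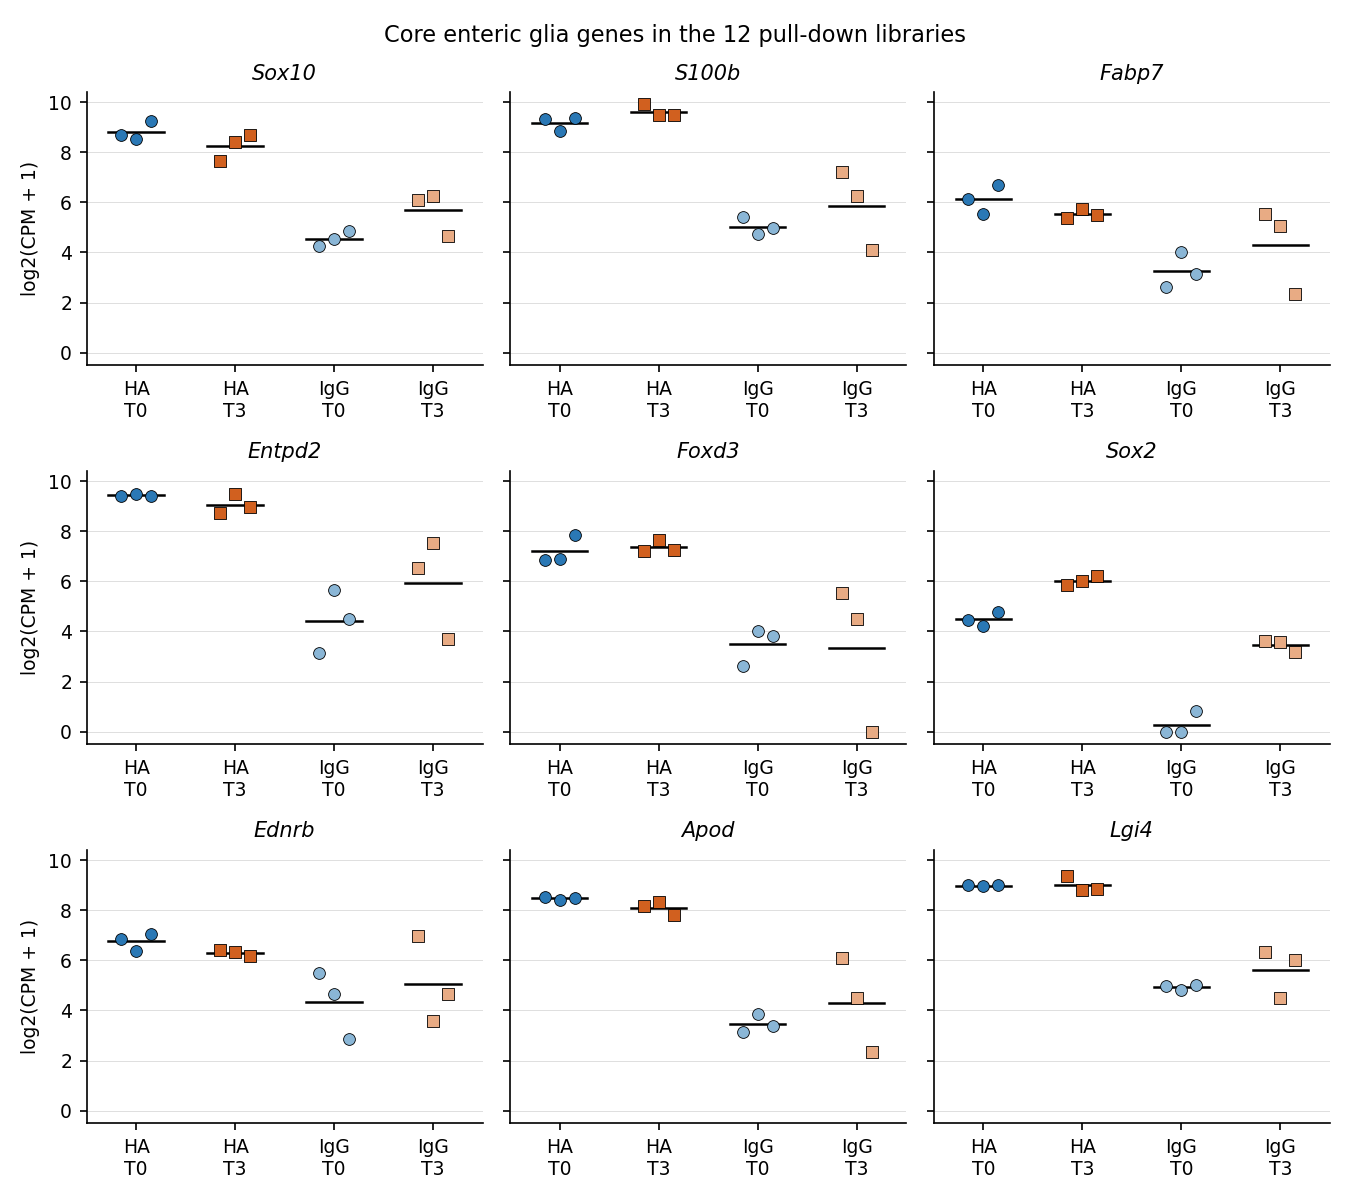
Levels of the 9 genes in each library, as log2(CPM + 1) on the vertical axis, by pull-down and time (circles, T0; squares, T3; dark, HA; pale, IgG; bar, mean of 3 libraries on this scale). The HA points of every gene lie above the IgG T0 points, and Sox2 and S100b are the genes whose HA T3 points all lie above the HA T0 points.

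In the naive tagged fraction the 9 genes summed to 2637 to 3303 CPM, against 149 to 194 CPM in IgG T0. Entpd2 was the most abundant, at 683, 714 and 677 CPM in mice 1, 2 and 4. S100b followed at 636, 464 and 660 CPM, Lgi4 at 506, 493 and 511 CPM, Sox10 at 408, 365 and 609 CPM and Apod at 373, 336 and 357 CPM. The range of Entpd2 lay above that of S100b, whereas S100b overlapped Lgi4, Lgi4 overlapped Sox10 and Sox10 overlapped Apod. A lower tier held Foxd3, at 116, 119 and 228 CPM, Ednrb, at 115, 82.1 and 133 CPM, and Fabp7, at 68.3, 45.8 and 102 CPM. Neighbours in this tier overlapped, and all 3 lay below Apod. Sox2 was the scarcest member at 20.7, 17.9 and 26.1 CPM, below every Fabp7 value.

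At T3 the sum in the HA fraction was 2639 to 2940 CPM, overlapping the range at T0. S100b now had the highest mean level, at 959, 713 and 706 CPM in mice 1, 3 and 4, but its range overlapped that of Entpd2, at 425, 722 and 498 CPM. Sox2 had moved above Fabp7. Its levels of 57.3, 62.9 and 73.2 CPM lay above the 40.9, 52.2 and 44.4 CPM of Fabp7 in every library.

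The first comparison asked whether the genes were enriched in the tagged fraction of naive mice. All 9 passed the test as enriched in HA by edgeR's quasi-likelihood test with Benjamini-Hochberg adjustment over all genes (adjusted p under 0.05), where 16.0% of the 9823 genes tested were called higher. In all 9 the HA and IgG levels did not overlap, as was the case, in the higher direction, for 24.7% of all genes. The median log2 difference of the members was 4.19, against -0.02 over all genes tested.

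Among the transcription factors, Sox10 stood at 18.0, 22.3 and 27.9 CPM in IgG T0, so that the HA levels were 16.4 to 22.6 times higher within a mouse (log2 difference 4.23, SE 0.27, adjusted p = 9.59e-08). Foxd3, at 5.15, 15.4 and 13.2 CPM in IgG T0, was higher in HA by a log2 difference of 3.63 (SE 0.36, adjusted p = 6.48e-06). Sox2 had counts of 0, 0 and 1 in IgG T0, at or under the detection floor, so its HA level exceeded that of IgG by at least 4.26-fold (mean of HA against the mean floor of 3 counts per library, adjusted p = 7.85e-05). All HA values of the 3 factors lay above all IgG values.

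Of the secreted and lipid-binding products, Apod was at 336 to 373 CPM in HA and 7.73, 13.7 and 9.30 CPM in IgG (log2 difference 5.08, SE 0.26, adjusted p = 3.2e-08). Lgi4 stood at 30.9, 27.4 and 31.8 CPM in IgG, a log2 difference of 4.03 (SE 0.22, adjusted p = 3.67e-08). Its enrichment within a mouse was close to constant, 16.1 to 18.0 times. Fabp7, at 5.15, 15.4 and 7.75 CPM in IgG, had a log2 difference of 2.90 (SE 0.40, adjusted p = 0.000126).

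S100b was at 41.2, 25.7 and 30.2 CPM in IgG T0 and differed by a log2 value of 4.19 (SE 0.25, adjusted p = 7.09e-08). Entpd2 was at 7.73, 49.7 and 21.7 CPM and differed by 4.65 (SE 0.39, adjusted p = 8.81e-06). Without IgG T0 replicate 2, its highest IgG library, the difference of Entpd2 was 5.30. The receptor Ednrb showed the smallest difference of the 9, with IgG levels of 43.8, 24.0 and 6.20 CPM (log2 difference 2.396, SE 0.55, adjusted p = 0.0121). The HA to IgG ratio of Ednrb ran from 2.62 to 21.5 between mice, and without IgG T0 replicate 2 the adjusted p was 0.0681 at a log2 difference of 2.55. The log2 difference of Ednrb was 3.12 without IgG T0 replicate 1 and 1.74 without replicate 4.

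**Figure D2:**
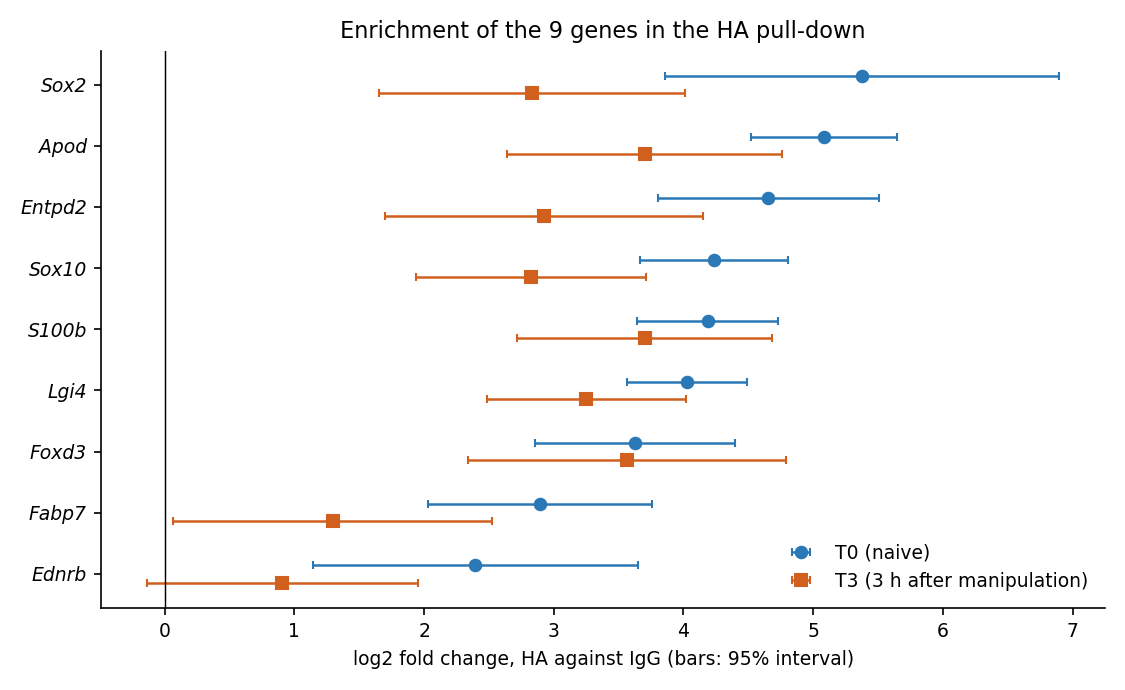
Log2 fold change of HA against IgG for each gene at T0 (circles) and T3 (squares), from edgeR with 95% intervals on 3 libraries per group. All 9 intervals at T0 lie above 0, with estimates from 2.396 for Ednrb to 5.38 for Sox2, and at T3 the interval of Ednrb crosses 0. The IgG counts of Sox2 are at or under the floor at both times, so its plotted values depend on the prior count and are no bound.

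At T3 the same question was asked of mice after manipulation. Of the 9, 7 genes were higher in HA (all but Fabp7 and Ednrb), against 11.8% of the 7200 genes tested. The same 7 had HA values above all IgG values, against 19.4% of genes. The median log2 difference of the members was 2.92, against 0.02 over all genes tested.

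Apod stood at 285, 320 and 226 CPM in HA and 68.1, 21.7 and 4.02 CPM in IgG (log2 difference 3.70, SE 0.51, adjusted p = 7.06e-05). S100b stood at 148, 76.1 and 16.1 CPM in IgG (log2 difference 3.70, SE 0.47, adjusted p = 4.79e-05). Foxd3 was at 147, 201 and 151 CPM in HA against 45.4, 21.7 and 0 CPM in IgG (log2 difference 3.56, SE 0.58, adjusted p = 0.000311). In each of the 3 genes IgG replicate 1 held the highest IgG level and replicate 4 the lowest. Without IgG T3 replicate 1 the log2 differences were 5.07 for Apod, 4.67 for S100b and 4.91 for Foxd3, and without replicate 4 they were 2.90, 3.10 and 2.58, with all 3 genes past the threshold in both fits. The values of Apod and Foxd3 without replicate 1 rest on IgG counts of 0 to 2, under the floor, and are no bound.

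Lgi4, at 650, 451 and 456 CPM in HA and 79.4, 21.7 and 64.4 CPM in IgG, differed by 3.25 (SE 0.37, adjusted p = 1.16e-05). Entpd2 was at 90.8, 185 and 12.1 CPM in IgG (log2 difference 2.92, SE 0.56, adjusted p = 0.00289), with values of 4.10 without IgG T3 replicate 3 and 2.26 without replicate 4. Sox10 was at 198, 338 and 414 CPM in HA and 68.1, 76.1 and 24.1 CPM in IgG (log2 difference 2.83, SE 0.42, adjusted p = 0.000144). Its ratio ranged from 2.91 in mouse 1 to 17.2 in mouse 4. Sox2, with IgG counts of 1, 1 and 2, exceeded them by at least 2.46-fold in HA against the same floor (adjusted p = 0.00141).

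Fabp7 and Ednrb did not pass. Fabp7 was at 45.4, 32.6 and 4.02 CPM in IgG T3, where replicate 1 lay above 2 of the 3 HA values (log2 difference 1.29, SE 0.59, adjusted p = 0.125). Ednrb was at 85.1, 80.2 and 70.9 CPM in HA and 125, 10.9 and 24.1 CPM in IgG, so that IgG replicate 1 exceeded every HA value (log2 difference 0.91, SE 0.50, adjusted p = 0.208). In mouse 1 the HA to IgG ratio was 0.902 for Fabp7 and 0.682 for Ednrb. Without IgG T3 replicate 4 the log2 difference of Fabp7 was 0.51 (adjusted p = 0.641). Without IgG T3 replicate 1 both genes passed, Fabp7 at a log2 difference of 2.06 (adjusted p = 0.0394) and Ednrb at 2.09 (adjusted p = 0.0059). That value of Fabp7 rests on IgG counts of 3 and 1, at or under the floor, and is no bound. That of Ednrb rests on IgG counts of 1 and 6.

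The difference between the enrichments at T3 and T0 was tested as the interaction of antibody and time over the 12 libraries. None of the 9 genes passed in edgeR, where 0.330% of 10314 genes did, and none of the 7 members with an adjusted p passed in DESeq2. At an unadjusted p under 0.05 the count was 1 in edgeR (Sox10), against 10.5% of all genes, and 4 in DESeq2, against 9.54%. Sox2, at the floor in both IgG groups, gave no interpretable estimate. Of the other 8 genes, 7 had a negative log2 estimate, from -1.45 for Entpd2 to -0.20 for S100b, and Foxd3 was at 0.19. Over all genes tested, 6101 of 10314 estimates were positive and the median was 0.18, or -0.18 with totals as scaling. Without IgG T3 replicate 1 the estimates of S100b and Apod were positive, at 0.62 and 0.12. In that edgeR fit 0 members had an unadjusted p under 0.05, against 10.7% of all genes. Without IgG T3 replicate 4 the count was 5, against 12.1%, and no member passed in either fit. Over all 12 libraries Sox10 had an estimate of -1.15 (SE 0.55, adjusted p = 0.471) with an interval from -2.29 to -0.01. The intervals of the remaining genes were wide, from -1.42 to 0.36 for Lgi4 and from -3.43 to 0.53 for Entpd2, so that a difference of 1 log2 unit could not be shown or set aside at this depth.

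The comparison of T3 with T0 within the HA fraction addressed how the identity genes changed 3 h after manipulation. Sox2 and S100b rose, 2 of the 9, and none fell, where 18.7% of the 9441 genes tested rose and 15.1% fell. DESeq2 called the same 2 genes higher and none lower, and no further member had an unadjusted p under 0.05 in either tool. The groups did not overlap in CPM for 3 members (Sox2, S100b and Apod), against 50.8% of all genes. The median log2 change of the members was -0.07, against -0.02 over all genes tested. These fitted changes use TMM scaling, while CPM divides by the total. Scaling by totals shifted the all-gene median to -0.29 and turned the balance of calls, from 1765 genes higher and 1422 lower to 1202 higher and 2660 lower, so a change in CPM looks lower than a fitted one.

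Sox2 rose from 17.9 to 26.1 CPM at T0 to 57.3 to 73.2 CPM at T3, a 3.56-fold increase (log2 change 1.83, SE 0.23, 95% interval 1.36 to 2.30, adjusted p = 2.85e-06). All 3 T3 libraries lay above all T0 libraries. The call held in each of the 13 alternatives, with log2 changes of 1.56 to 1.93, though the replicate block among them joins different mice by number. The other neural crest factors did not pass. Sox10 was at 365 to 609 CPM at T0 and 198 to 414 CPM at T3 (log2 change -0.26, SE 0.26, interval -0.82 to 0.29, adjusted p = 0.462). Foxd3 was at 116 to 228 CPM and then 147 to 201 CPM (log2 change 0.39, SE 0.23, interval -0.10 to 0.88, adjusted p = 0.211), but without HA T0 replicate 4, its highest library, the log2 change was 0.71 and the adjusted p 0.0112.

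S100b rose from 464 to 660 CPM to 706 to 959 CPM, a 1.62-fold increase (log2 change 0.70, SE 0.18, interval 0.31 to 1.08, adjusted p = 0.0061). The T3 values lay above all T0 values. The call was lost with totals as scaling (log2 change 0.43, adjusted p = 0.0567) and when all 12 libraries were fitted together (0.71, adjusted p = 0.0861).

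Fabp7 was at 45.8 to 102 CPM at T0 and 40.9 to 52.2 CPM at T3 (log2 change -0.38, SE 0.25, interval -0.90 to 0.13, adjusted p = 0.24). With totals as scaling Fabp7 was called lower, at a log2 change of -0.66 (adjusted p = 0.0384). Apod went from 336 to 373 CPM to 226 to 320 CPM, without overlap on the CPM scale, yet its fitted log2 change was -0.10 (SE 0.18, interval -0.46 to 0.27, adjusted p = 0.697). Lgi4 was at 493 to 511 CPM at T0, the tightest member, and at 451 to 650 CPM at T3 (log2 change 0.30, SE 0.17, interval -0.06 to 0.67, adjusted p = 0.188). For the surface proteins, Entpd2 had a log2 change of -0.07 (SE 0.19, interval -0.47 to 0.33, adjusted p = 0.812) and Ednrb of -0.22 (SE 0.19, interval -0.63 to 0.18, adjusted p = 0.401). The intervals of Entpd2, Apod and Ednrb stayed within 0.63 log2 units of 0.

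Marker sums of several other cell types moved between the same HA groups, while those of epithelium and endothelium overlapped. Smooth muscle markers summed to 17168 to 26060 CPM at T0 and 13516 to 15845 CPM at T3, and macrophage markers to 262 to 539 and 142 to 239 CPM. Fibroblast markers summed to 877 to 1272 CPM at T0 and 283 to 468 CPM at T3. Markers of interstitial cells of Cajal summed to 2604 to 3366 and 1170 to 1533 CPM, and mesothelium markers to 181 to 241 and 22.6 to 34.1 CPM. Of 5 monocyte and neutrophil markers, the 3 present in the data summed to 1.39 to 5.59 and 18.1 to 116 CPM. That rise lay in S100a9 and S100a8, while Ccr2 had 3 to 9 counts at T0 and 0 to 5 at T3. Of the 10 neuron markers tested, 3 rose (Prph, Tubb3 and Uchl1) and none fell, against 18.7% and 15.1% of all genes. In IgG, fibroblast markers also summed lower at T3, at 1054 to 1771 CPM against 2588 to 2852 CPM at T0. Mesothelium markers did so too, at 136 to 205 CPM against 536 to 1083 CPM. Monocyte and neutrophil markers summed higher at T3 in IgG as well, at 21.7 to 250 CPM against 8.53 to 17.1 CPM. The part of these shifts in the changes of Sox2 and S100b was not tested.

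Ratios to Sox10 within a library do not depend on scaling. The Sox2 to Sox10 ratio was 0.051, 0.050 and 0.043 at T0 and 0.291, 0.187 and 0.177 at T3, a difference of 2.15 on the log2 scale (pooled SD 0.29, n = 3 per group). The S100b to Sox10 ratio was 1.56, 1.27 and 1.08 at T0 and 4.84, 2.11 and 1.70 at T3, a difference of 1.00 (pooled SD 0.59). Both ratios were higher at T3 in every library, and mouse 1, with the lowest Sox10 level of the HA T3 group, gave the highest value of each. The ratios of the other 6 genes overlapped between T0 and T3, with differences from -0.01 for Fabp7 to 0.74 for Foxd3.

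**Figure D3:**
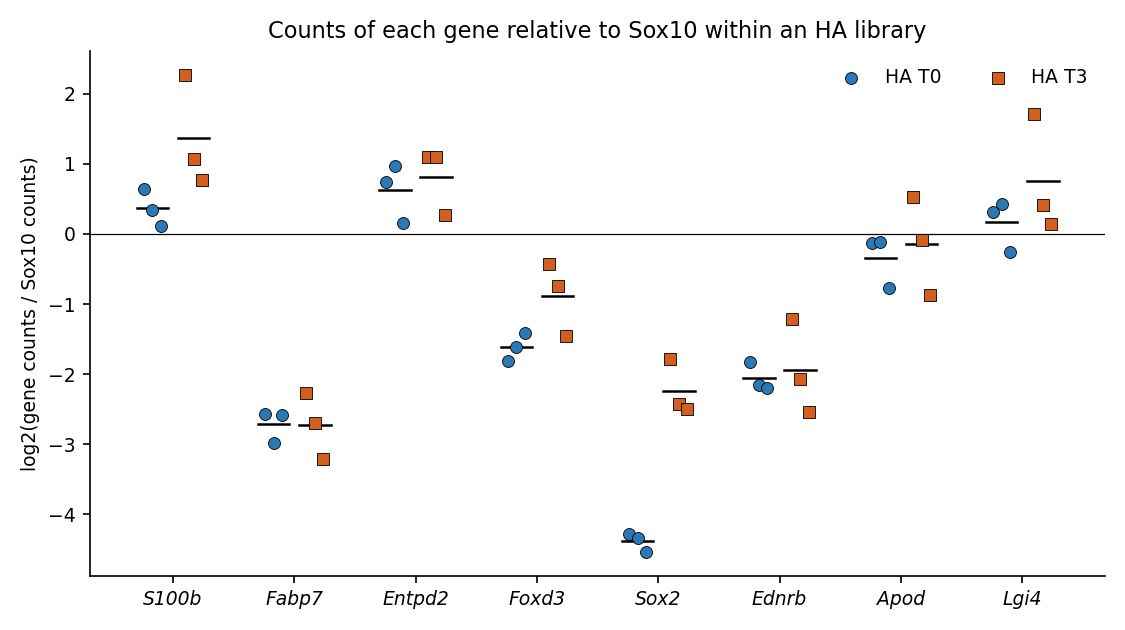
Log2 ratio of the counts of each gene to those of Sox10 in the 3 HA T0 (circles) and 3 HA T3 (squares) libraries, with the mean as a bar. The points of Sox2 and of S100b separate by time, by 2.15 and 1.00 log2 units, and those of the other 6 genes overlap.

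In the IgG control, only S100b, Entpd2 and Lgi4 had counts high enough to be tested between T3 and T0. None of the 3 passed in edgeR, and none passed in DESeq2, against 5.46% of the 5219 genes tested in edgeR. At an unadjusted p under 0.05 the count was 0 in edgeR, against 21.1% of all genes, and 1 in DESeq2, against 18.1%. Their log2 changes were 1.03 for S100b (interval -0.27 to 2.33, adjusted p = 0.354), 1.54 for Entpd2 (-0.27 to 3.35, adjusted p = 0.308) and 0.91 for Lgi4 (-0.08 to 1.90, adjusted p = 0.278). All 3 overlapped in CPM, whereas 26.0% of all genes tested did not. Without IgG T3 replicate 4, 6 members were tested in edgeR and 4 had an unadjusted p under 0.05, against 17.9% of all genes. Without IgG T3 replicate 1 the count was 0 of 4, against 20.8%, and no member passed in either fit.

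Partners of the 9 genes were then followed in 7 lists, counted over the genes tested for T3 against T0 in HA. Of all 9441 genes tested there, 18.7% rose and 15.1% fell. Of the 8 other S100 genes tested, 7 rose and none fell (median log2 change 1.30), a count that ran from 6 to 8 over the alternatives. S100a6 rose from 1234 to 1651 CPM to 2471 to 3274 CPM (log2 change 1.33, SE 0.18, adjusted p = 7.75e-06) and S100a10, the annexin A2 partner, from 239 to 260 CPM to 476 to 772 CPM (1.66, SE 0.19, adjusted p = 1.42e-06). S100a16 rose by 1.27 (adjusted p = 6.99e-06). S100a9, a neutrophil gene, had 1 to 3 counts per library at T0 and 24 to 120 at T3, and its call was lost without any 1 of the HA T0 libraries (adjusted p = 0.0618 to 0.0739). S100b had a smaller estimate than 7 of these 8 genes, a difference that was not tested.

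Within the endothelin system, 2 of the 4 genes tested fell and none rose (median log2 change -0.36), against 15.1% and 18.7% of all genes. Edn3, the ligand of EDNRB, fell from 430 to 726 CPM to 237 to 300 CPM (log2 change -0.79, SE 0.19, adjusted p = 0.00275), and lost its call when all 12 libraries were fitted together (adjusted p = 0.0602). Ednra, the type A receptor, fell from 41.9 to 70.0 CPM to 4.09 to 12.7 CPM (-2.34, SE 0.33, adjusted p = 1.99e-05). The endothelin-converting enzyme Ece1 was at 659 to 945 CPM and then 661 to 841 CPM (0.18, adjusted p = 0.464), Ece2 had a change of 0.07 (adjusted p = 0.889), and Edn1 was too scarce to test. At T0 Edn3 (log2 difference 4.13, adjusted p = 8.88e-08), Ednra (2.56) and Ece1 (2.19) were all enriched in HA.

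Of the LGI4-related genes, 1 of 4 rose and 1 fell (median log2 change -0.17), against 18.7% and 15.1% of all genes. Adam23 rose by 0.73 (SE 0.23, adjusted p = 0.0214), a call that was lost with totals as scaling (0.46, adjusted p = 0.126) and without HA T0 replicate 2, HA T0 replicate 4 or HA T3 replicate 1 (adjusted p = 0.075 to 0.079). Adam23 also missed the threshold when all 12 libraries were fitted together (adjusted p = 0.204). With the replicate block it was at 0.58 (adjusted p = 0.0692), but between T3 and T0 that block joins different mice by number. Lgi2 fell from 47.6 to 58.5 CPM to 12.5 to 21.4 CPM (-1.29, SE 0.25, adjusted p = 0.000514). Adam11 (0.24, adjusted p = 0.283) and Adam22, the receptor best known to bind LGI4 (-0.58, adjusted p = 0.149), did not pass, and Lgi1 and Lgi3 were not tested. Adam11 was the most abundant of the list, at 320 to 337 CPM in HA T0, and was higher in HA than in IgG (3.23, adjusted p = 0.00106).

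Of 11 genes that handle extracellular nucleotides, 3 rose and 4 fell (median log2 change -0.47), against 18.7% and 15.1% of all genes. The ATP-release channel Panx1 rose from 22.6 to 36.3 CPM to 139 to 175 CPM (2.61, SE 0.21, adjusted p = 7.97e-09), and the UDP receptor P2ry6 rose by 1.98 (adjusted p = 1.58e-05). P2ry2 rose by 1.28 (adjusted p = 0.0277), a call that DESeq2 did not make (adjusted p = 0.0887) and that was lost without HA T0 replicate 2 or 4 or HA T3 replicate 3 or 4 (adjusted p = 0.0684 to 0.128). Entpd1, the relative of Entpd2, fell (-2.15, SE 0.51, adjusted p = 0.00297), as did the adenosine-forming Nt5e (-1.50, adjusted p = 0.00078), the ATP receptor P2rx4 (-0.91, adjusted p = 0.000646) and the connexin Gja1 (-0.84, adjusted p = 0.0281). Entpd1 was at 8.38 to 14.6 CPM in HA T0, far below Entpd2. Gja1 lost its call in 4 of the 6 fits without 1 library, HA T0 replicate 1 (-0.47, adjusted p = 0.112) and each of the 3 HA T3 libraries in turn (adjusted p = 0.054 to 0.128), and when all 12 were fitted together (adjusted p = 0.147). P2rx7 (-0.53, adjusted p = 0.0601) and Entpd3 (-0.17, adjusted p = 0.66) did not pass, and P2ry1 was not tested.

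Of 8 lipid-handling genes, 2 rose and 1 fell, against 18.7% and 15.1% of all genes (median log2 change 0.16, or -0.11 with totals as scaling). Fabp5, a relative of Fabp7, rose from 49.7 to 86.7 CPM to 158 to 287 CPM (1.77, SE 0.25, adjusted p = 7.49e-05), and the lipocalin Lcn2 rose by 3.33 (adjusted p = 9.62e-06) from 3 to 5 counts per library. Clu fell (-0.89, adjusted p = 0.0013). Apoe, the most abundant of the list with 913 CPM or more in every library, differed by 3.17 log2 units between HA and IgG T0 (adjusted p = 9.76e-07) and had a change of 0.17 with time in HA (adjusted p = 0.525). Bsg had a change of 0.04 (adjusted p = 0.903), and Ptgds was not tested.

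Of 7 SOX and neural crest factors tested, 3 rose and 1 fell (median log2 change -0.05), against 18.7% and 15.1% of all genes. Sox4 rose from 53.1 to 77.6 CPM to 401 to 854 CPM (3.66, SE 0.29, adjusted p = 8.86e-07) and Sox6 by 1.55 (SE 0.34, adjusted p = 0.00158). Hes1, a Notch target, rose by 0.96 (adjusted p = 0.000795), Hey2, another, fell (-2.03, adjusted p = 0.000611), and Hey1 had a change of -0.05 (adjusted p = 0.897). Sox8 and Sox9, close relatives of Sox10, were too scarce to test, with 0 to 7 counts in every HA library.

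Of 16 other glia genes tested, 5 rose and 1 fell (median log2 change 0.44), against 18.7% and 15.1% of all genes. Gfap, the glial intermediate filament, rose from 95.5 to 130 CPM to 1515 to 1960 CPM (4.12, SE 0.20, adjusted p = 3.63e-12). Gfap also passed as higher at T3 in IgG, from 2.58 to 6.98 CPM (1 to 9 counts) to 101 to 141 CPM (10 to 25 counts). Cryab, a small heat shock protein that smooth muscle also makes, rose by 2.45 (adjusted p = 1.74e-09). Gpr37l1, a receptor of glia, fell from 1566 to 1874 CPM to 649 to 1036 CPM (-0.87, SE 0.19, adjusted p = 0.00174). Fxyd1 (0.18, adjusted p = 0.502) did not pass. At T0, 14 of the 16 tested genes of this list passed as enriched in HA (median log2 difference 2.56), against 16.0% of all genes.

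**Figure D4:**
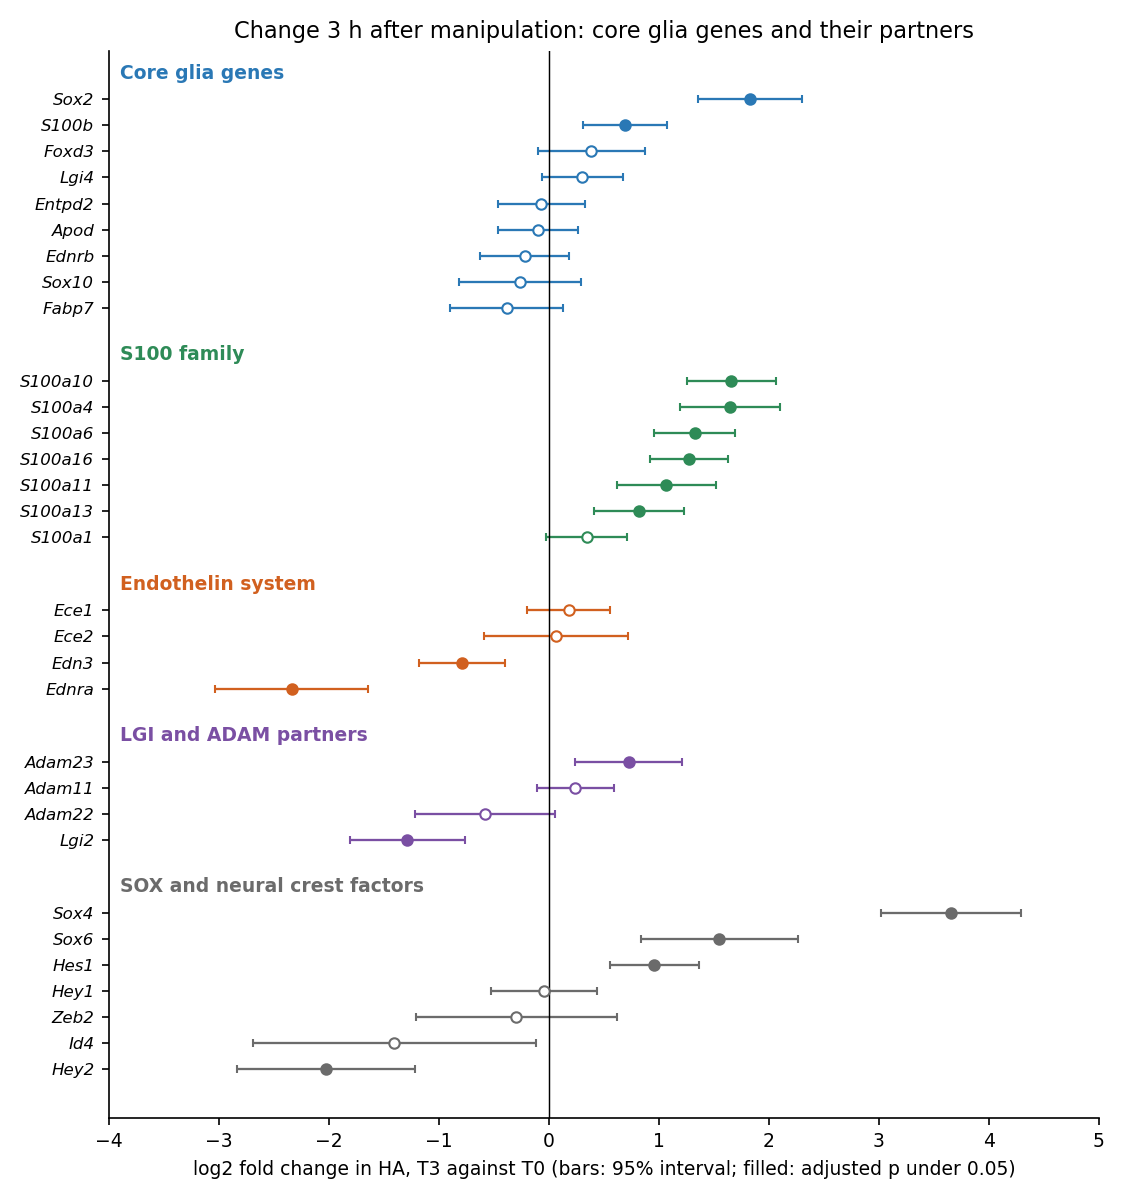
Log2 change in the HA fraction from T0 to T3 for the 9 genes and for the tested genes of 4 partner lists, from edgeR with 95% intervals on 3 libraries per group (filled circles, adjusted p under 0.05). Among the 9 genes the filled points are Sox2 at 1.83 and S100b at 0.70, while the S100 family lies to the right of 0 and Edn3, Ednra, Lgi2 and Hey2 are filled to its left. S100a9, at the floor in HA T0, is not drawn.

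The genes whose pattern over the 12 libraries was most like the mean standardised profile of the 9 were sought among 8122 genes. By Pearson's r on log2(CPM + 1) they were Gfra1 (0.993), Fbxo7 (0.990), Lpar1 (0.989), Eif1b (0.988) and Gprc5b (0.985). Gfra1, a co-receptor for glial cell line-derived neurotrophic factor, was at 513 ± 102 CPM (SD, n = 3) in HA T0, 485 ± 78.8 CPM in HA T3, 33.8 ± 6.36 CPM in IgG T0 and 85.9 ± 54.1 CPM in IgG T3. Lpar1, a lysophosphatidic acid receptor, was at 733 ± 70.6 CPM in HA T0 and 796 ± 72.6 CPM in HA T3. Over these 12 points the likeness rests mainly on the difference between HA and IgG. At each time the HA libraries were also deeper than the IgG libraries, and in both pull-downs depth was lower at T3 than at T0. Within the 6 HA libraries alone none of the 5 was among the 5 most alike. There r was 0.917 for Eif1b, 0.875 for Gfra1, 0.711 for Fbxo7, 0.218 for Gprc5b and -0.35 for Lpar1. Of the 9 genes, Ednrb (0.788) and Sox2 (0.865) followed the common profile least and Apod (0.992) most closely. Each of the 9 enters that profile itself, which raises its r, so these values are not comparable with those of the 5 genes above.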

How the data were processed

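Bulk MARS-seq libraries of HA and IgG pull-downs were analysed as deposited. The counts deposited by the authors are unnormalised unique molecular identifiers per gene: adapters were trimmed with cutadapt, reads mapped to mm10 with STAR 2.4.2a, and unique mappers counted with HTSeq in union mode in a window of 1000 bases upstream to 100 bases downstream of the 3' end, keeping genes with at least 5 reads in at least 1 sample. Among the 12975 genes given, 189 had fewer than 5 counts in every library. DESeq2 1.26.0, by which the study normalised, does not enter these values. Up to 8 samples shared a sequencing pool, and which did is not given in the sources used here.

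All results here were computed from the counts with R 4.3.3. CPM is the count divided by the library's total and scaled to a common size. Differences were tested with edgeR 4.0.16 (TMM scaling, filterByExpr, robust quasi-likelihood F-test) on the 6 libraries compared, or on 12 for the interaction, with Benjamini-Hochberg adjustment over all genes tested and a threshold of 0.05. SE is the log2 change divided by the root of F, and intervals are 95%. p-values measure the spread between 3 mice per group. Alternatives were RLE and total-count scaling, other filters, DESeq2 1.42.0, all 12 libraries in one fit, the replicate block and leaving out each library. Ratios within a library were formed after adding 0.5 counts to each gene. Detection floors are 3 counts and cover counting error only. The HA and IgG libraries of a mouse share a homogenate, since the supernatant was divided, and their deviations from the group means correlated at 0.254, 0.240 and 0.257 at T0 and 0.156, 0.162 and 0.095 at T3. Mice at T0 and T3 differ and share numbers only. The members and lists were chosen with earlier results of these data known. Named were the 9 members, their direct partners, the 3 most abundant genes of each list, and the 5 genes most like the members with at least 10 CPM in HA, together with a few list genes named in counts. Some genes of the lists are not reported here by name. Promoters are those of RefSeq (GRCm38.p6), restricted to the 250 bases before the start, and gene positions those of GENCODE release 21 for mouse.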

Additional observations from a re-analysis of the deposited data

How the results depend on the processing

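Of 550 single-gene results under alternatives, 527 kept their direction and their side of the threshold, 3 lost and 7 gained a call, and 13 changed sign, none of the 13 where the gene passed the test in that comparison. All 9 genes stayed higher in HA at T0 in every alternative but the fit without IgG T0 replicate 2, where 8 passed, and 7 to 9 were higher at T3, 9 with no filter or without IgG T3 replicate 1. In the fit of all 12 libraries 1 member (Sox2) was called between T3 and T0 in HA and 1 (Sox2, on 1 count at T0 and 4 at T3) in IgG. The interaction of Foxd3 changed sign with totals as scaling (-0.18) and in DESeq2 (-0.038). Leaving out 1 library at a time, log2 changes between T3 and T0 in HA ran from -0.50 to 0.0050 for Sox10, from -0.31 to 0.11 for Entpd2 and from -0.21 to 0.033 for Apod, and interactions ran from -0.92 to 1.42 for Foxd3, from -0.97 to 0.62 for S100b and from -2.06 to 0.12 for Apod, and the cause was not tested. Over the 6 HA libraries the likeness of the 5 genes ran from -0.35 for Lpar1 to 0.917 for Eif1b.

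With the replicate block, pairing HA and IgG by mouse, 9 members passed at T0 and 7 at T3, the same as without it. Between T3 and T0 the numbers mark different mice (r of deviations 0.14 and 0.02 in HA), so the block pairs no animals there. Its fits are still counted among the alternatives above. With the block 3 members passed in HA, Fabp7 being lower (-0.70, adjusted p = 0.0158). Low depth limits the IgG T3 libraries most.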
